A study of Homo sapiens with 8 samples.

Results

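The genes described here handle 2 families of hormone-like lipids, the retinoids (vitamin A and its derivatives) and vitamin D. They are RPE65, CRABP1, CRABP2, DHRS3, ALDH1A2, CYP26A1, CYP26B1, CYP27B1 and CYP24A1, which makes 9 of the 67060 genes in the deposited count table. They were chosen by name with the comparison of the 2 groups below already known. Their fold changes are therefore given as a description, with no test.

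Libraries were made from SH-SY5Y, an established human neuroblastoma line, which the labels call neuronal progenitors, and their RNA had been depleted of rRNA. In the ERRg group the cells had received an adenovirus for BioID, a biotin ligase used in proximity labelling, joined to Flag-tagged ERRg, the estrogen-related receptor gamma. In the GFP group they had received an adenovirus for BioID joined to a green fluorescent protein that carries a nuclear localisation signal. Per the labels' protocols both groups were given 0.5 ul of virus at 80% confluence and RNA was isolated after 48 h. Each group holds 4 libraries, and none of the samples is from cells without virus.

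Retinol is oxidised to retinaldehyde and from there to retinoic acid, the form that binds nuclear receptors. Retinaldehyde can also be reduced back to retinol, and cytochromes of the CYP26 family oxidise retinoic acid to forms that are cleared. Vitamin D is hydroxylated in steps to calcitriol, the ligand of the vitamin D receptor, which a mitochondrial cytochrome breaks down. Retinoic acid is widely used to make neuroblastoma cells differentiate. ERRg is an orphan nuclear receptor that binds DNA at an extended form of the hexamer AGGTCA, to which the retinoic acid and vitamin D receptors bind as repeats.

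Reads assigned to genes ranged from 21019138 to 23007457 per ERRg library and from 27668958 to 35520672 per GFP library. ESRRG, which encodes ERRg, averaged 808 ± 73.2 CPM in ERRg libraries and 34.9 ± 2.34 CPM in GFP libraries (SD, n = 4 each), where CPM is the counts-per-million-reads unit on effective library sizes. Reads outside annotated exons made up 45.5% to 48.3% of all reads in the table in ERRg and 16.2% to 24.2% in GFP. Among ERRg libraries, replicates 1 and 2 were the most alike and replicates 3 and 4 the next most (mean chi-square per gene 2.90 and 5.02, against 9.87 to 22.4 for the other pairs). Of 12 neuroblastoma markers 9 passed the filter on low counts. By edgeR's test (adjusted p under 0.05) 0 of these were called higher and 7 lower, or 3 and 3 with the offsets described below. Of all coding genes tested 28.9% were called higher and 50.6% lower, or 30.7% and 41.4% with the offsets. HAND2, 1 of the 3 called higher with the offsets, averaged 129.9 CPM in ERRg and 245 CPM in GFP (log2 fold change -0.92, and 0.18 with the offsets). DBH, 1 of the 3 called lower with them, was at -2.24 without and -1.21 with the offsets. TH and CHGA, which are noradrenergic and neuroendocrine markers, had a count of 0 in every library, and zeros are given here as listed, without taking the RNA to be missing. Fewer cells with a transcript and less of it per cell cannot be told apart in such bulk samples.

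Regulatory sequence upstream of 7 of the 9 genes was read from RefSeq promoter windows on GRCh38.p14, which run from 250 bases before to 50 bases after each annotated start. CYP24A1 and CYP27B1 had no entry. The first 2 sequences below are the 200 bases from -250 to -51 of RPE65, the gene with the largest fold change, and of CRABP2, the one with the lowest. The third is the 30 bases from -97 to -68 of the downstream start of CYP26A1, with a pair of direct repeats spaced by 5 bases (a DR5, the arrangement bound by retinoic acid receptors) in capitals.
RPE65, chr1:68450005-68450204, minus strand: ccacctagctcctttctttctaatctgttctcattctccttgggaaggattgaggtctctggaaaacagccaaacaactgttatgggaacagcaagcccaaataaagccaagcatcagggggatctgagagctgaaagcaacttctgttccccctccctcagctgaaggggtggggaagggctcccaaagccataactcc
CRABP2, chr1:156705835-156706034, minus strand: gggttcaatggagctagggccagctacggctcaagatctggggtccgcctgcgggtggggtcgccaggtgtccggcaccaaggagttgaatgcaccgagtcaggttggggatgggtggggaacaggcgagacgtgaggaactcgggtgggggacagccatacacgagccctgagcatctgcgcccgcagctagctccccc
CYP26A1, chr10:93073796-93073825, plus strand: ttaaagaTGAACTTTGGGTGAACTaattgt

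The stretch shown for RPE65 was 50.5% G and C and that for CRABP2 65.5%. The DR5 of CYP26A1 lay at -90 to -74 of its start and was the sole direct repeat with a spacing of 1 to 5 bases in the 11 windows of these genes. A DR5 was present in 0.0883% of all 35116 RefSeq windows. The extended element TNAAGGTCA, searched on both strands like each of these motifs, was in none of the 11 windows and in 0.951% of all windows. The hexamer AGGTCA on its own was in 13.8% of all windows and in 1 of the 11, that of the third start of DHRS3, at -171 to -166 on the opposite strand. These matches describe letters in short windows and say nothing of binding or of elements elsewhere.

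RPE65 and CYP24A1 were higher in ERRg libraries, CRABP2, DHRS3 and CRABP1 were lower, CYP27B1 and ALDH1A2 overlapped between the groups, and the CYP26 genes were near or at 0. Of the 9, 7 passed the filter on low counts. By edgeR's quasi-likelihood test over all genes (adjusted p under 0.05), 5 of these 7 were called, 2 higher and 3 lower, where 74.7% of the 21993 genes tested were called, 38.8% higher and 35.9% lower. Of the 13413 coding genes among them, to which these 7 belong, 79.5% were called, 28.9% higher and 50.6% lower. Since the comparison also chose the genes, nothing is read from that count. The groups did not overlap for the same 5, and did not overlap for 68.4% of all genes tested, with ERRg higher in 33.9% and lower in 34.6%.

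**Figure D1:**
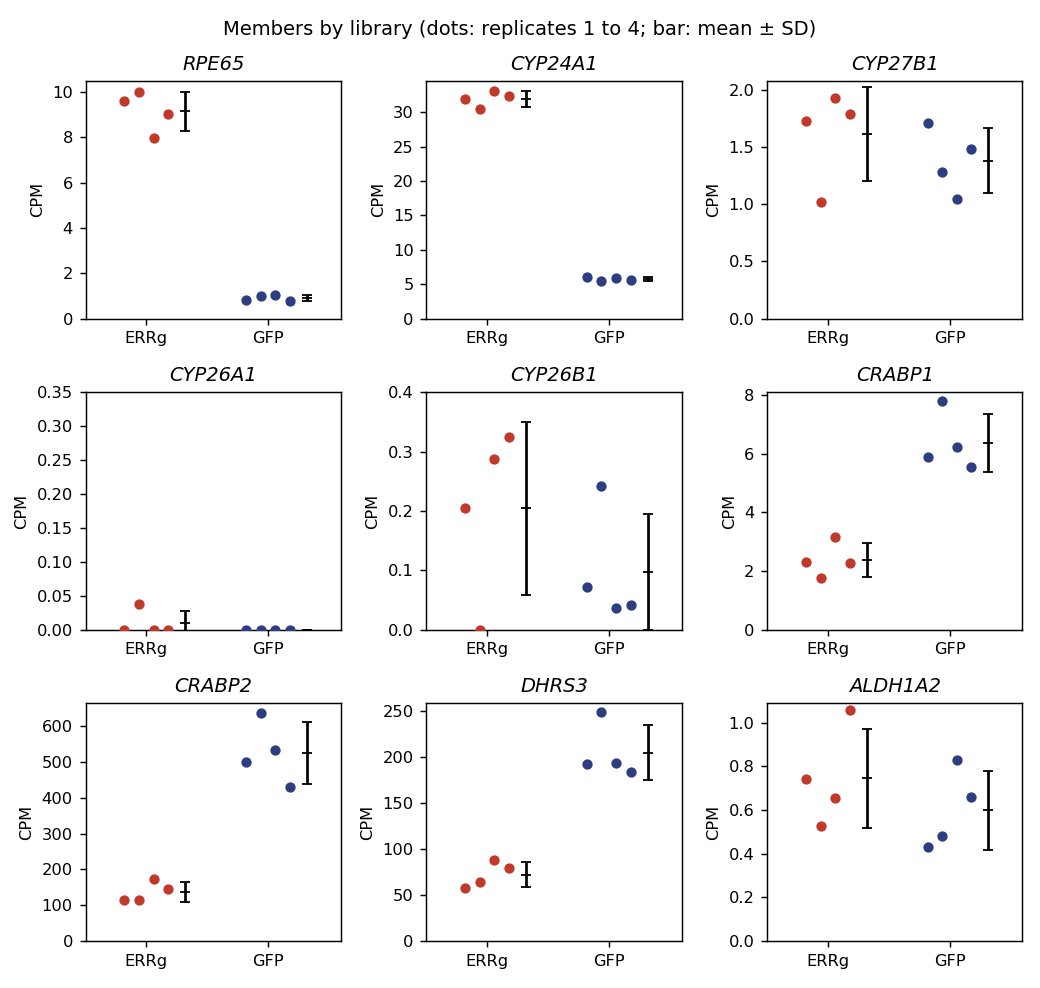
CPM of each gene (vertical axes, each on its own linear scale from 0) in the 4 ERRg and 4 GFP libraries, with dots for replicates 1 to 4 from left to right and black bars for mean ± SD. ERRg dots lie above all GFP dots for RPE65 and CYP24A1 and below all of them for CRABP1, CRABP2 and DHRS3. The ranges of the groups overlap for the other 4 genes.

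RPE65 is the isomerase of the visual cycle, which makes 11-cis-retinol from retinyl esters in the retinal pigment epithelium. It had 9.59, 9.99, 7.96 and 9.02 CPM in ERRg libraries 1 to 4, against 0.821, 1.00, 1.04 and 0.782 CPM in GFP libraries 1 to 4. Every ERRg library was thus higher than every GFP library. The values rest on 194 to 266 reads per ERRg library and 19 to 29 per GFP library. The log2 fold change was 3.31 (SE 0.17), or 9.95-fold. The gene (ENSG00000116745.7) lies on chromosome 1 from 68428822 to 68449959 on the minus strand, in GENCODE 29 on GRCh38, and overlaps no other annotated gene.

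DEPDC1, the nearest gene upstream of RPE65 on the same strand, ends 24192 bases away. Its mean level of 44.8 ± 7.11 CPM in ERRg libraries stood against 26.4 ± 3.93 CPM in GFP libraries (SD, n = 4 each), and it rose by 0.77 on the log2 scale (SE 0.12, edgeR adjusted p = 7.51e-06), or by 0.24 with the offsets described below. Its part in the value of RPE65 was not tested. The genes whose log2 CPM followed that of RPE65 most closely over the 8 libraries, by the root mean square difference after each gene was centred on its mean, were RAB30 (0.18), DPF3 (0.23) and ZFYVE28 (0.25). RAB30 encodes a small GTPase of the Golgi and DPF3 a chromatin-remodelling subunit. That likeness mostly restates a similar difference between the groups, with log2 fold changes of 2.99, 3.28 and 3.36.

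Of 16 markers of retinal pigment epithelium, RPE65 included, 9 were tested. By edgeR's test 4 rose and 4 fell, and with the offsets described below 4 rose and 0 fell. Of all coding genes 28.9% were called higher and 50.6% lower, or 30.7% and 41.4% with the offsets. The summed level of the 16 markers was 93.4 to 102 CPM in ERRg libraries and 95.9 to 126 CPM in GFP libraries. SERPINF1 made up the largest part of it, with 52.9 CPM in ERRg and 91.0 CPM in GFP on average. LRAT, which makes the retinyl esters that RPE65 uses, and the defining genes OTX2 and RGR were listed at 0 in all 8 libraries. RLBP1, which carries 11-cis-retinoids, had at most 5 reads in any library. Singled out after their values were seen, the transcription factor MITF had 14.5 CPM in ERRg and 3.21 CPM in GFP on average (log2 fold change 2.18, edgeR adjusted p = 1.18e-10), and the opsin RRH 1.90 CPM in ERRg and 0.460 CPM in GFP (2.04, edgeR adjusted p = 5.67e-06). RDH5, the 11-cis-retinol dehydrogenase of that tissue, fell (log2 fold change -1.32, SE 0.33, edgeR adjusted p = 0.00110). BEST1 (-0.95), SERPINF1 (-0.78) and PMEL (-0.59) were called lower too. None of these 4 stayed called with the offsets, where RDH5 was at -0.35.

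CRABP1 and CRABP2 are the cellular retinoic acid binding proteins; CRABP2 delivers retinoic acid to receptors in the nucleus. CRABP2 (ENSG00000143320.9, chromosome 1 from 156699606 to 156705816, minus strand) had 114, 115, 172 and 145 CPM in ERRg libraries 1 to 4, against 500.3, 638, 534 and 429.8 CPM in GFP libraries 1 to 4. Every ERRg library was lower than every GFP library. Its log2 fold change was -1.95 (SE 0.13), the lowest of the 7. CRABP1 (ENSG00000166426.8, chromosome 15 from 78340324 to 78348230, plus strand) had 2.30, 1.77, 3.16 and 2.28 CPM in ERRg libraries 1 to 4, against 5.89, 7.80, 6.22 and 5.56 CPM in GFP libraries 1 to 4. The ERRg libraries were all lower here too, and the log2 fold change was -1.43 (SE 0.18).

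Per kilobase of annotated exon, CRABP2 was the most abundant of the 9 genes in both groups. It averaged 124 ± 25.2 CPM per kilobase in ERRg and 478 ± 78.7 in GFP (SD, n = 4 each), and CRABP1 2.39 ± 0.582 in ERRg and 6.41 ± 0.999 in GFP. The level of CRABP2 over that of CRABP1 was 44.7, 58.7, 49.1 and 57.4 in ERRg libraries 1 to 4, and 76.7, 73.9, 77.4 and 69.8 in GFP libraries 1 to 4. CRABP2 thus made up the larger share by far in every library, and by a smaller margin in each ERRg library. The antisense gene AL590666.4 overlaps CRABP2 by 5152 bases of its span and had 25 to 36 reads in ERRg and 47 to 63 in GFP. That is few beside the 2772 to 4189 reads of CRABP2 in ERRg and the 10442 to 18489 in GFP. The closest profiles to that of CRABP2 were those of the junction protein gene JUP (0.071), of HIGD2A (0.072) and of PPP1R16B (0.081), by the same measure.

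DHRS3 reduces all-trans-retinaldehyde to retinol and ALDH1A2 oxidises it to retinoic acid, so they draw on the same substrate in opposite directions. DHRS3 (ENSG00000162496.9, chromosome 1 from 12567910 to 12617731, minus strand) had 57.8, 63.7, 87.8 and 78.9 CPM in ERRg libraries 1 to 4, against 192, 248, 193 and 184 CPM in GFP libraries 1 to 4. The groups did not overlap, and GFP library 2 stood above the other GFP libraries. Its log2 fold change was -1.50 (SE 0.12). The non-coding gene AC254633.1, annotated 1168 bases upstream on the same strand, fell as well (1.58 ± 0.509 CPM in ERRg and 6.79 ± 0.742 CPM in GFP, log2 fold change -2.11, SE 0.19, edgeR adjusted p = 4.39e-09).

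ALDH1A2 (ENSG00000128918.15, chromosome 15 from 57953424 to 58497866, minus strand) had 0.741, 0.526, 0.657 and 1.06 CPM in ERRg libraries 1 to 4, against 0.428, 0.483, 0.828 and 0.659 CPM in GFP libraries 1 to 4. These levels rest on 14 to 26 reads in ERRg and 12 to 23 in GFP, and the groups overlapped. The log2 fold change was 0.31 (SE 0.32). The long span also holds AQP9 and LIPC on the other strand, with at most 8 and 9 reads in any ERRg library and at most 3 and 4 in any GFP library. Per kilobase, DHRS3 exceeded ALDH1A2 by 212 to 379.7 times in ERRg libraries and by 664 to 1460.3 times in GFP libraries. Since the comparison also chose the genes, nothing is read from the gap between the ranges, and ALDH1A2 rests on few reads in all 8 libraries.

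CYP26A1 and CYP26B1 encode the hydroxylases that clear retinoic acid, and CYP26A1 is strongly induced by it. CYP26A1 (ENSG00000095596.12, chromosome 10 from 93073475 to 93077890, plus strand) had 1 read in ERRg library 2 and 0 in the other 7 libraries. A count of 0 allows up to 0.122 to 0.123 CPM in ERRg libraries 1, 3 and 4. In GFP libraries it allows up to 0.104 to 0.123 CPM (3 counts per library, counting error only). The transcript AL358613.3, which had 0 reads in all 8 libraries, overlaps CYP26A1 on the same strand over 3950 bases of its span, and reads that match both genes can be set aside as ambiguous, so the limit holds for assigned reads only. CYP26B1 (ENSG00000003137.8, chromosome 2 from 72129238 to 72148038, minus strand) had 5, 0, 7 and 8 reads in ERRg libraries 1 to 4, against 2, 7, 1 and 1 in GFP libraries 1 to 4. The groups overlapped, neither gene passed the filter, and a difference was not detectable at this depth. The DR5 printed above lies before a gene with 1 assigned read in ERRg library 2 and 0 in the other 7 libraries.

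CYP24A1, the 24-hydroxylase that inactivates calcitriol, is a widely used target gene of the vitamin D receptor. It had 31.9, 30.5, 33.2 and 32.4 CPM in ERRg libraries 1 to 4, against 6.10, 5.42, 5.86 and 5.68 CPM in GFP libraries 1 to 4. The groups did not overlap, and both were tighter around their means than those of the other 6 tested genes. The log2 fold change was 2.47 (SE 0.10), or 5.54-fold. The gene (ENSG00000019186.10) lies on chromosome 20 from 54153449 to 54173973 on the minus strand and overlaps no annotated gene. Its neighbour PFDN4, which starts 33873 bases upstream on the other strand, fell (29.9 ± 2.89 CPM in ERRg and 55.7 ± 8.33 CPM in GFP, log2 fold change -0.90, SE 0.11, edgeR adjusted p = 3.19e-07).

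CYP27B1, the 1-alpha-hydroxylase that makes calcitriol, had 1.73, 1.01, 1.93 and 1.79 CPM in ERRg libraries 1 to 4, against 1.71, 1.28, 1.04 and 1.48 CPM in GFP libraries 1 to 4. The groups overlapped, with 27 to 47 reads in ERRg and 29 to 48 in GFP, and the log2 fold change was 0.22 (SE 0.24). In CPM, ERRg library 2 lay below all GFP libraries and the other ERRg libraries above all of them. The gene (ENSG00000111012.10, chromosome 12 from 57762334 to 57768986, minus strand) shares 516 bases with METTL1 on the same strand, where reads can be set aside as ambiguous. METTL1 fell (8.66 ± 1.21 CPM in ERRg and 19.3 ± 0.646 CPM in GFP, log2 fold change -1.16, SE 0.11, edgeR adjusted p = 1.02e-08), and was at -0.10 with the offsets described below. Per kilobase, CYP24A1 exceeded CYP27B1 by 14.9 to 26.0 times in ERRg libraries and by 3.09 to 4.87 times in GFP libraries. The comparison also chose the genes, so nothing is read from the gap between these ranges. With the offsets CYP24A1 was at 2.68 and CYP27B1 at 1.21, against 2.47 and 0.22 without.

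Fold changes in these libraries followed the GC content of transcripts, and the 7 genes differ in it. RPE65 has 38.0% GC and falls in a decile of coding genes with a median log2 fold change of 0.62. CYP24A1 (45.9%) falls in one with a median of -0.21, and ALDH1A2 (51.3%) in one with a median of -0.72. CRABP1, CRABP2, DHRS3 and CYP27B1 have 55.8% to 57.8% GC and share a decile with a median of -0.97, in which 77.8% of genes were called lower. Over all 21993 genes the median was 0.09, and over the coding genes it was -0.30. CRABP2 and DHRS3 thus lay below the lower quartile of their decile (-1.35), and CRABP1 (-1.43) just below it. CYP27B1 and ALDH1A2 lay above the upper quartiles of their deciles (-0.44 and -0.29), and RPE65 and CYP24A1 far above theirs (0.90 and 0.24).

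**Figure D2:**
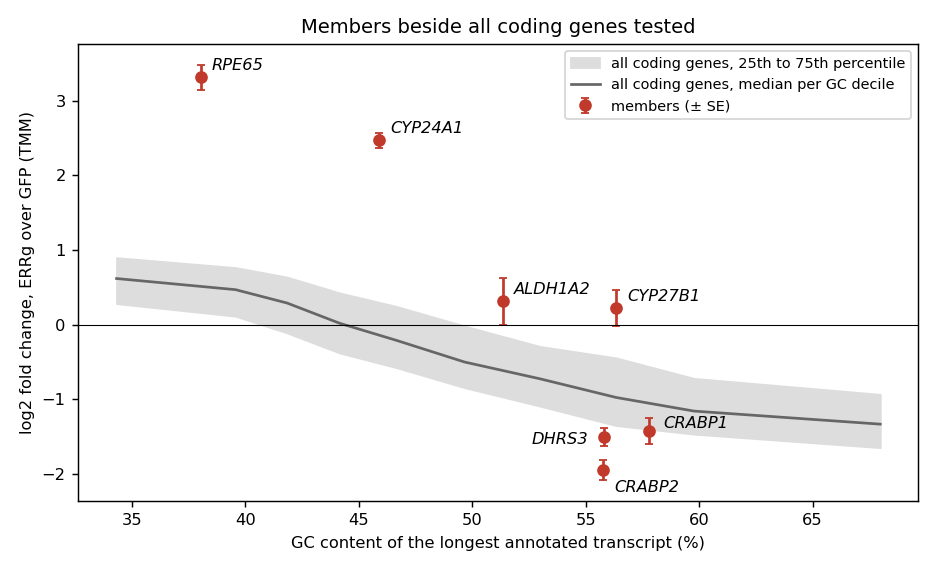
Log2 fold change of ERRg over GFP (vertical axis) against GC content of the longest annotated transcript in percent (horizontal axis), with red dots ± SE for the 7 tested genes, a grey line for the median of all coding genes per GC decile and a band from the 25th to the 75th percentile. RPE65 and CYP24A1 stand well above the band and CRABP2 below it at 55.8% GC.

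With offsets in the model for transcript GC, transcript length and genomic span, the 7 genes kept their signs while the sizes changed. RPE65 was at 2.97 (SE 0.14) and CYP24A1 at 2.68 (SE 0.07). CRABP2 was at -0.89 (SE 0.07), DHRS3 at -0.75 (SE 0.07) and CRABP1 at -0.25 (SE 0.14). CYP27B1 was at 1.21 (SE 0.22), against 0.22 without offsets, and ALDH1A2 at 0.58 (SE 0.30). In that fit 3 of the 7 were called higher and 2 lower, where 30.7% of 13413 coding genes were called higher and 41.4% lower. CYP27B1 was among the 3 called higher, and CRABP1 was no longer called. Upper-quartile factors moved all 7 upward by about the shift of the median of all genes (0.40 against 0.09), to 3.62 for RPE65, 2.77 for CYP24A1 and -1.64 for CRABP2. RPE65, CYP24A1, CRABP2, DHRS3 and CRABP1 thus kept their direction under these scalings, with other sizes. Since the comparison also chose the genes, nothing is read from their calls or from the kept directions. Without ERRg replicates 2 and 4, the values were 3.24 for RPE65, 2.48 for CYP24A1, -1.24 for CRABP1, -1.90 for CRABP2 and -1.51 for DHRS3.

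**Figure D3:**
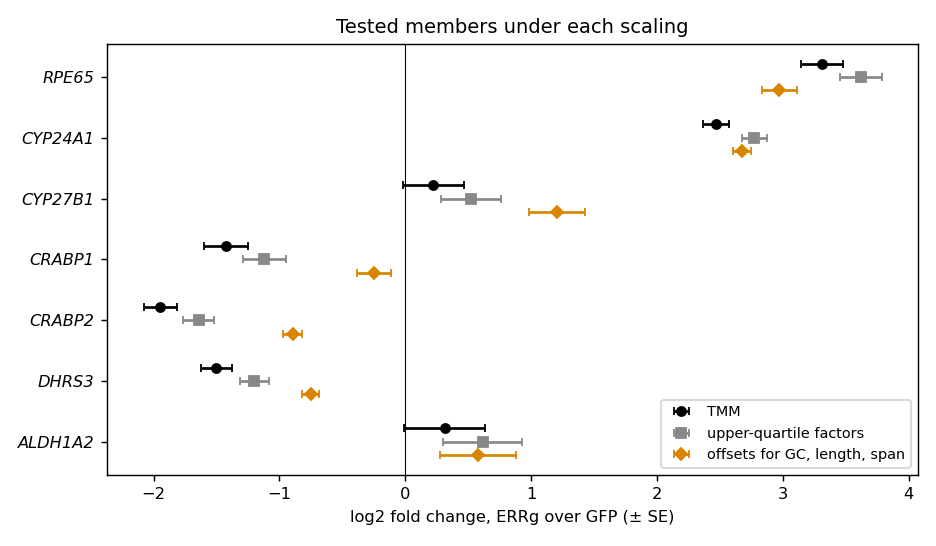
Log2 fold change of ERRg over GFP (horizontal axis, ± SE) of the 7 tested genes under TMM scaling (black circles), upper-quartile factors (grey squares) and the offsets (orange diamonds). RPE65 and CYP24A1 stay above 2 under each, while CRABP1 comes to -0.25 and CYP27B1 to 1.21 with the offsets.

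The levels also varied within each group, as did the share of reads outside exons. The GFP library with the smallest share (replicate 2, 16.2%) had the highest CRABP2, DHRS3 and CRABP1 of its group. In ERRg, replicate 3 had the smallest share (45.5%) and again the highest of all 3 genes. CYP24A1 varied little (30.5 to 33.2 CPM in ERRg and 5.42 to 6.10 CPM in GFP), and RPE65 was highest in ERRg replicates 1 and 2, whose shares were the largest (48.3% and 47.3%). In GFP it was the other way round, with RPE65 highest in replicates 3 and 2 (1.04 and 1.00 CPM), whose shares were the smallest (20.1% and 16.2%). The share differs between the groups without overlap, and its part in these differences was not tested.

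**Figure D4:**
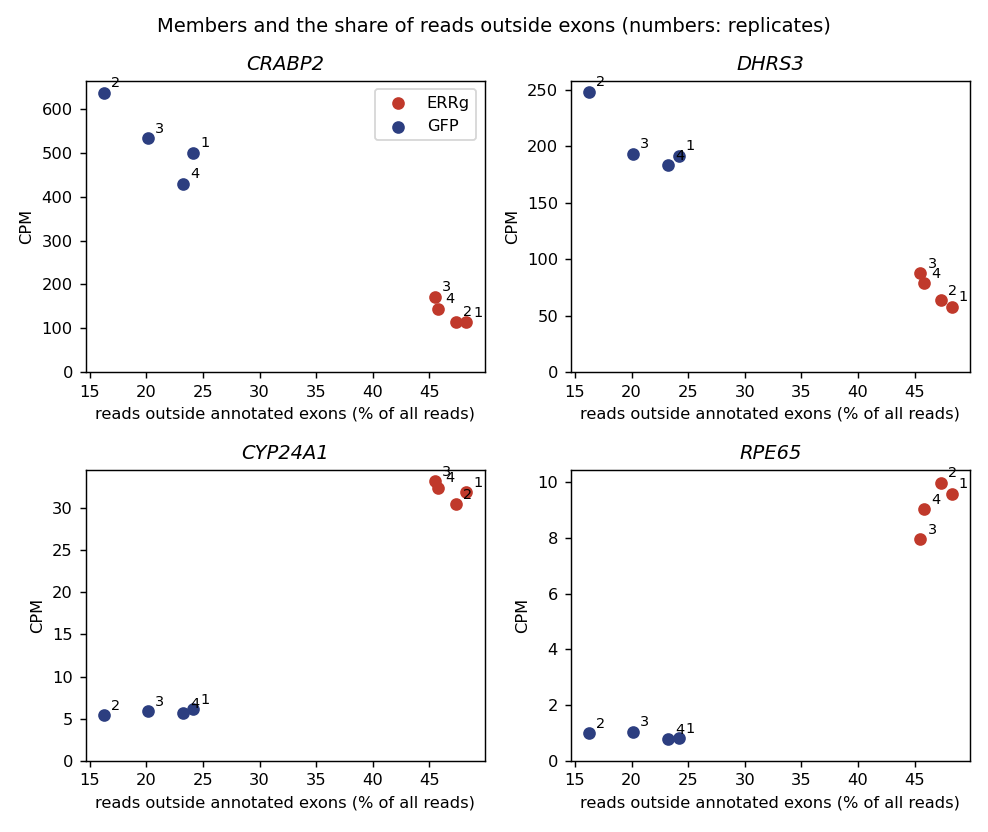
CPM (vertical axes, from 0) of CRABP2, DHRS3, CYP24A1 and RPE65 against the percentage of reads outside annotated exons (horizontal axes) in the 4 ERRg (red) and 4 GFP (blue) libraries, numbered by replicate. The ERRg libraries sit at 45.5% to 48.3% and the GFP libraries at 16.2% to 24.2%, and CRABP2 and DHRS3 are highest in GFP replicate 2.

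Other genes of retinoid handling moved in both directions. Of 52 such genes 23 were tested, 7 rose and 12 fell (edgeR adjusted p under 0.05), a median log2 fold change of -0.21 against -0.30 over all coding genes and 0.09 over all genes. All 23 are coding genes, and 82.6% of them were called, near the 79.5% of all coding genes (74.7% of all genes). Those 79.5% were 28.9% higher and 50.6% lower. With the offsets 8 of the 23 rose and 8 fell (median -0.09, against -0.07 over all coding genes). In that fit 72.1% of coding genes were called, 30.7% higher and 41.4% lower. With upper-quartile factors 9 of the 23 rose and 9 fell, and with library totals 10 rose and 8 fell. Of the 29 genes not tested, 15 were listed at 0 in all 8 libraries, among them LRAT, the retinol receptor STRA6 and the receptors RXRB and RXRG.

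Of 3 carriers tested among 10, 1 rose and 2 fell, where 28.9% of all coding genes were called higher and 50.6% lower. The intestinal RBP2 rose (1.29, SE 0.28, edgeR adjusted p = 2.86e-04) on 25 to 34 reads in ERRg and 9 to 18 in GFP. FABP5, a fatty acid binding protein that also binds retinoic acid, was called lower (-0.49), but with the offsets it was at 0.16 and not called (edgeR adjusted p = 0.188), and its call also ended with upper-quartile factors (-0.19) and library totals (-0.08).

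Of 7 enzymes tested among 19, 3 rose and 4 fell, beside 28.9% of all coding genes called higher and 50.6% lower. BCO2, which cleaves carotenoids, rose to 5.19 ± 0.825 CPM in ERRg, against 1.69 ± 0.11 CPM in GFP (log2 fold change 1.62, SE 0.17), and ALDH8A1, described as acting on 9-cis-retinaldehyde, by 2.97 (SE 0.43) on 14 to 22 reads in ERRg and 1 to 3 in GFP. Both stayed called with the offsets (1.48 and 3.33). ALDH1A3, a paralog of ALDH1A2 that was far more abundant here, was called lower (8.26 ± 0.596 CPM in ERRg and 13.2 ± 1.05 CPM in GFP, -0.68, SE 0.11, edgeR adjusted p = 1.43e-05), a call that ended with the offsets (-0.18, adjusted p = 0.0585). RDH5 also lost its call (-0.35, adjusted p = 0.313), and the retinol dehydrogenase RDH14 was called lower at -0.24 and higher with the offsets at 0.46.

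Of 4 receptors tested among 6, none rose and 3 fell. Beside this, 50.6% of all coding genes were called lower, and 84.6% to 88.8% in the GC deciles of these 3. RXRA, the shared partner of the retinoic acid and vitamin D receptors, fell to 8.76 ± 1.04 CPM in ERRg, against 28.5 ± 1.80 CPM in GFP (log2 fold change -1.70, SE 0.11), and RARG to 30.9 ± 5.50 CPM, against 87.5 ± 7.55 CPM in GFP (-1.50, SE 0.11). Both fell with the offsets as well (-0.91 and -0.49). RARA fell by 1.06 but was at -0.04 with the offsets (adjusted p = 0.471). RARB, itself a target of retinoic acid, did not pass the test (-0.08, SE 0.09, edgeR adjusted p = 0.413), and its sign changed with the scaling (0.23 with upper-quartile factors and -0.45 with the offsets, both called).

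Of 9 genes described as induced by retinoic acid that were tested among 17, 3 rose and 3 fell. Thus 66.7% of the 9 were called, beside 79.5% of all coding genes (28.9% higher and 50.6% lower). The transglutaminase TGM2 fell to 566 ± 112 CPM in ERRg, against 1849.8 ± 309 CPM in GFP (log2 fold change -1.71, SE 0.13, and -1.02 with the offsets). RARRES1 rose to 6.98 ± 0.476 CPM in ERRg, against 2.80 ± 0.318 CPM in GFP (1.32, SE 0.14, and 1.52 with the offsets). The orphan receptor NR2F2 fell by 0.68 (SE 0.09) and stayed called with the offsets (-0.15, adjusted p = 0.0429). NR2F1 was called lower at -0.56, not called with library totals (-0.15) and called higher with the offsets at 0.50, and MEIS2 was called higher at 0.37 and was at -0.09 with the offsets. NRIP1 was not called (0.01, SE 0.33, edgeR adjusted p = 0.984), nor with the offsets (-0.59).

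Of 27 other genes of vitamin D handling and response, 14 were tested, 4 rose and 8 fell (median log2 fold change -0.62, or -0.21 with the offsets, which gave the same counts). These too are all coding genes, and 85.7% of them were called, beside 79.5% of all coding genes (28.9% higher and 50.6% lower, with a median of -0.30) and 74.7% of all genes. With upper-quartile factors 6 rose and 7 fell, and with library totals 6 rose and 6 fell. In supply and uptake, where 1 of 6 rose and 4 fell, megalin (LRP2), which takes up vitamin D bound to its carrier, rose to 4.47 ± 0.83 CPM in ERRg, against 0.0764 ± 0.0676 CPM in GFP. Its partner cubilin (CUBN) fell to 8.14 ± 0.674 CPM in ERRg, against 19.9 ± 2.75 CPM in GFP (-1.29, SE 0.12, and -1.50 with the offsets). DHCR7, which draws on the vitamin D precursor to make cholesterol, was lower by either fit (log2 fold change -1.25, SE 0.12, and -0.32 with the offsets). PDIA3, a protein disulfide isomerase also described as binding vitamin D, was called lower (-0.58, SE 0.09), was at -0.28 with upper-quartile factors and lost its call with library totals (-0.18, edgeR adjusted p = 0.0690). CYP2R1, the main vitamin D 25-hydroxylase, was not called (0.12, SE 0.11, edgeR adjusted p = 0.317), but was called higher with upper-quartile factors (0.42) and library totals (0.52) and was at -0.0052 with the offsets.

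The vitamin D receptor VDR, singled out after its values were seen, fell (log2 fold change -1.61, SE 0.40, edgeR adjusted p = 0.00126, and -1.07 with the offsets). It had 2 to 7 reads in ERRg libraries and 12 to 20 in GFP libraries. Of 8 other genes described as regulated by VDR that were tested among 16, 3 rose and 4 fell. Among all coding genes 28.9% were called higher and 50.6% lower. Thrombomodulin (THBD) rose to 3.48 ± 0.373 CPM in ERRg, against 0.410 ± 0.278 CPM in GFP (3.04, SE 0.29, edgeR adjusted p = 7.61e-09), and SPP1 rose by 4.49 (SE 0.11). IGFBP3, which binds insulin-like growth factors, fell by 2.44 (SE 0.10), and was at -1.85 with the offsets. The Wnt coreceptor LRP5 fell by 1.15 (SE 0.11), and was at -0.27 with the offsets. LRP2, SPP1 and IGFBP3 were known to differ when the list was written.

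**Figure D5:**
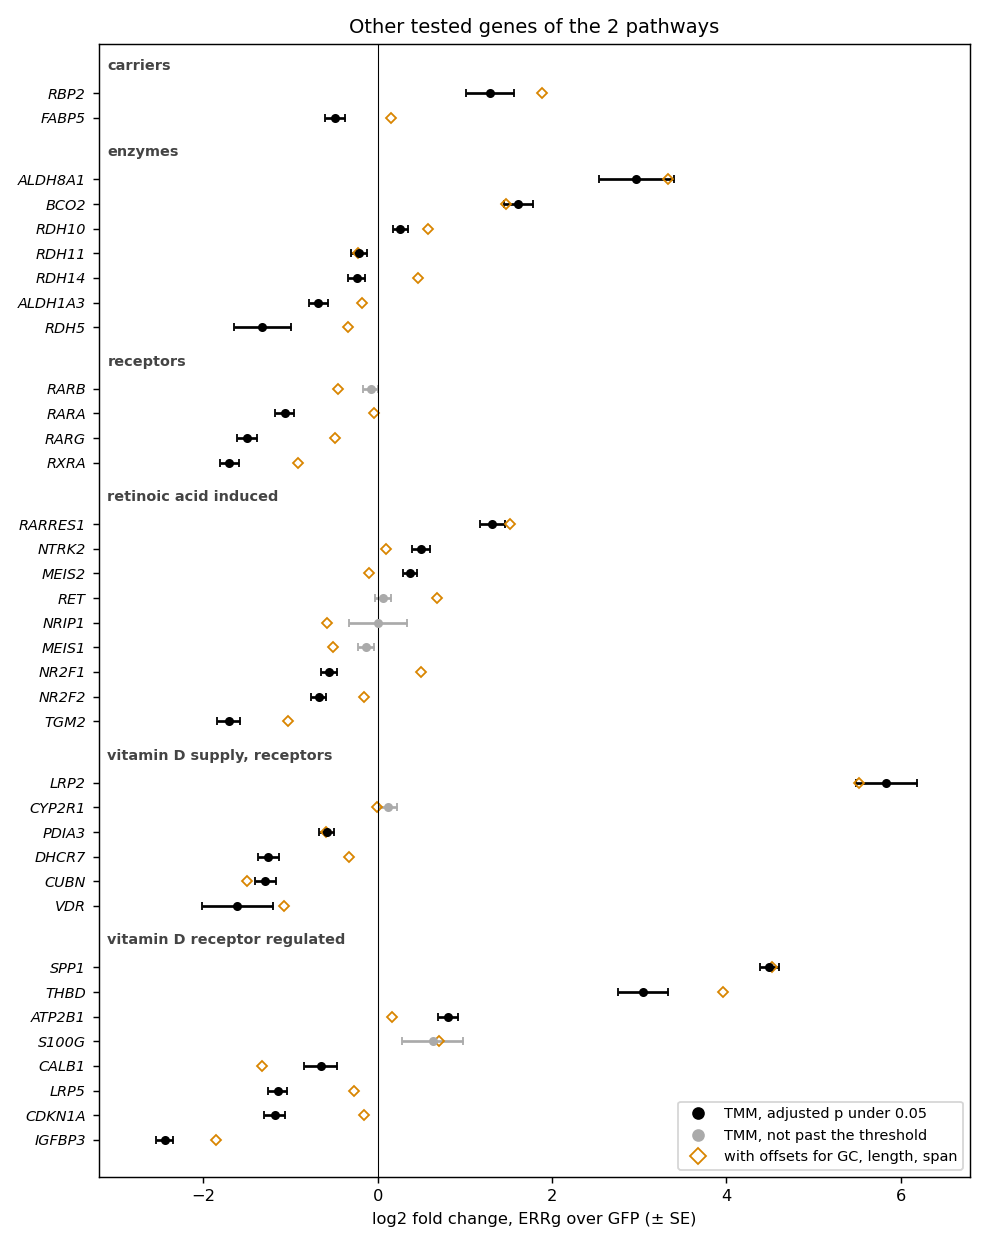
Log2 fold change of ERRg over GFP (horizontal axis, ± SE) of other tested genes in 6 lists, black where the edgeR adjusted p was under 0.05 and grey where it was not, with open orange diamonds for the fit with offsets. LRP2, SPP1, THBD and ALDH8A1 lie farthest to the right and IGFBP3 farthest to the left.

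Markers of kidney tubule, a tissue known for LRP2, CUBN, CYP27B1 and CYP24A1, summed to 13.1 to 14.8 CPM in ERRg libraries and 20.4 to 26.3 CPM in GFP libraries. CUBN made up the largest part of that sum, with 8.14 CPM in ERRg and 19.9 CPM in GFP on average. Of these 12 markers 5 were tested, 1 rose (LRP2) and 2 fell (2 and 2 with the offsets), and UMOD and HNF4A were listed at 0 in all 8 libraries. Of 10 fibroblast markers 9 were tested, 1 rose and 8 fell (0 and 8 with the offsets), and they summed to 2361 to 2697 CPM in ERRg and 3379 to 3855 CPM in GFP. FN1 was the largest part there, at 1549 CPM in ERRg and 1875 CPM in GFP on average. Of the 9 tested neuroblastoma markers 0 rose and 7 fell (3 and 3 with the offsets), and they summed to 483 to 564 CPM in ERRg and 825 to 957 CPM in GFP. Beside these counts, 28.9% of all coding genes were called higher and 50.6% lower (30.7% and 41.4% with the offsets). The part of these markers in the differences above was not tested.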

How the data were processed

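The authors deposited a table of whole-number read counts per gene for 8 libraries. The tools named in the submitters' processing notes are HTSeq 0.11.3, STAR 2.7.8a, Trim Galore 0.6.6, DESeq2 and CASAVA, and the build is GRCh38. Which annotation release was counted, and with which strand option, is not given in the sources used here. Per the labels' protocols the RNA was depleted of rRNA and the library preparation kept strand information. Separate cultures are not stated in the labels, and p-values therefore measure only the spread between the 8 libraries, part or all of which may be technical.

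Of 67060 genes, 60419 were matched to symbols and 58474 to GENCODE 29, the source of coordinates, lengths and GC content. The 5 summary lines of the counter (reads outside exons, ambiguous reads and the like) were kept out of library sizes and tests. Genes were filtered with filterByExpr, scaled by TMM and tested with edgeR 4.0.16 (quasi-likelihood test, all 8 libraries, no covariate, Benjamini-Hochberg adjustment, threshold 0.05) in R 4.3.3. The SE of a log2 fold change was its size over the square root of F. Offsets for GC content, length and span were natural splines with 4 degrees of freedom, fitted on coding genes. Alternatives used other scalings and filters, DESeq2 1.42.0, limma 3.58.1, a replicate block and left-out libraries. The scripts were tested on simulated data.

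The 9 genes and all lists were chosen with earlier results of these data known. Named besides the 9 were ESRRG, the 4 tested genes of each of 6 lists with the smallest p plus up to 2 whose direction turned with the offsets, the neighbours of the 9, and the 3 closest profiles to RPE65 and to the gene with the lowest fold change. Markers were named to check cell types. A gene that this rule named is counted in its list but not reported here. Intervals and floors cover counting error only.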

Additional observations from a re-analysis of the deposited data

Results flagged for a closer look

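In 74 groups of 4 libraries, 3 held a library that stood apart from the other 3 by Dixon's criterion, which chance gives in about 1 of 20 groups. DHRS3 was at 248 CPM in GFP replicate 2, where the other GFP libraries had 184 to 193 CPM. CYP26A1 was at 0.0376 CPM in ERRg replicate 2, a single read, where the other ERRg libraries had 0. NRIP1, a nuclear receptor corepressor, was at 0.324 CPM in GFP replicate 3, where the other GFP libraries had 0.690 to 0.714 CPM.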

How the results depend on the processing

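No sign of the 7 tested genes among the 9 changed under any alternative run. With library totals, where the median of all genes was 0.50, CYP27B1 (0.62) and ALDH1A2 (0.71) were called higher, but nothing is read from calls of the genes chosen. Leaving out 1 library at a time gave log2 fold changes of 3.18 to 3.36 for RPE65, 2.39 to 2.48 for CYP24A1, -2.11 to -1.88 for CRABP2, -1.63 to -1.42 for DHRS3, -1.61 to -1.31 for CRABP1, 0.02 to 0.39 for CYP27B1 and 0.08 to 0.44 for ALDH1A2. Over all genes, 8529 were called higher and 7899 lower. With the offsets, which tested 13413 coding genes, 4118 were called higher. Upper-quartile factors gave 11041 higher and 6045 lower, and library totals 11791 and 5383. Same-numbered libraries did not deviate together (correlations of -0.16 to 0.09), but with 4 libraries per group this cannot show whether the numbers pair them. The replicate block gave 8191 higher and 7653 lower, 7 and 10 for the retinoid genes and 4 and 8 for the vitamin D genes. Signs changed with the offsets for FABP5 (0.16), RDH14 (0.46), MEIS2 (-0.094) and NR2F1 (0.50), with upper-quartile factors for RDH14 (0.066) and RARB (0.23), and with library totals for RDH14 (0.16) and RARB (0.32); the cause was not tested. Values not past the threshold that crossed 0 were those of NRIP1 (-0.59 with the offsets, and between -0.29 and -0.0070 under 8 others), CYP2R1 (-0.0052 with the offsets and -0.0059 without GFP replicate 3) and RARB (0.035 with the 1 CPM filter). The call of RDH14 was also lost without ERRg replicate 3 (-0.19), without ERRg replicate 4 (-0.25) and with the block (-0.24). It was lost too with the 1 CPM filter (-0.13) and without ERRg replicates 2 and 4 together (-0.27). VDR fell under the count filter without any 1 GFP library. Depth limits CYP26A1, CYP26B1, ALDH1A2, CYP27B1 and VDR, which rest on few reads.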
